A study of Mus musculus with 4 samples.

Results

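Interferon-induced GTPases are proteins that immune and tissue cells make when they sense interferon, and that attack the membranes around intracellular pathogens. The 10 genes described here (Ifi47, Igtp, Irgm1, Irgm2, Iigp1, Tgtp2, Gbp2, Gbp3, Gbp7 and Gbp9) were taken by symbol from the 32285 genes of the count matrices, and all 10 were present. They fall into 2 families. The 6 immunity-related GTPases (IRGs) comprise the regulators Irgm1, Irgm2 and Igtp, which hold the other IRGs inactive on the cell's own membranes, and the effectors Ifi47, Tgtp2 and Iigp1, which load onto the membranes of pathogen vacuoles. The 4 guanylate-binding proteins (GBPs), Gbp2, Gbp3, Gbp7 and Gbp9, assemble on the same vacuoles. Interferon gamma signals through the receptor chains Ifngr1 and Ifngr2 and acts on genes through gamma-activated sites (GAS). Type I interferons signal through Ifnar1 and Ifnar2 and act through interferon-stimulated response elements (ISREs), which the factor complex ISGF3 binds.

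The cells were invariant natural killer T (iNKT) cells, T lymphocytes that recognise lipids on CD1d, sorted from the thymus by staining for CD3 and with CD1d carrying PBS57, a glycolipid these cells recognise. Single-cell RNA libraries were made with a 5′ kit from BALB/c mice (2 libraries) and B6 mice (2 libraries); the labels give no treatment, age or further genotype. Whether a strain's libraries are separate animals is not stated, so p-values measure the spread between these libraries, which may be technical. Values are given in a fixed order, BALB/c 1 and 2 and then B6 1 and 2.

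The deposited matrices held 2038, 2056, 2494 and 9732 cell barcodes and 20406245 to 82904358 UMIs (unique molecular identifiers, each a distinct tagged RNA molecule) per library. After filtering, 1864, 1913, 2328 and 8790 cells were kept, with a median of 6922.5 to 11003.5 UMIs per cell, and any 2 libraries shared 4 to 29 barcodes among these. Cells were clustered without the 10 genes and without other interferon genes, and clusters were named from marker genes. This gave iNKT1-like cells (281, 610, 1432 and 5348), iNKT2-like cells (862, 676, 163 and 898) and iNKT17-like cells (322, 186, 69 and 173). As a description and not a separate check, 2 of the markers used for naming are given here. Tbx21 was at 148 to 193 CPM (its share of all UMIs of those cells, on the CPM scale) in iNKT1-like cells and at most 32.4 in the other classes. Zbtb16 was higher in iNKT2-like (356 to 690 CPM) than in iNKT1-like cells (63.2 to 139) in each library. Most iNKT1-like cells of B6 lay in clusters 0, 2, 3 and 4 and those of BALB/c in clusters 9 and 10, and the iNKT2-like cells lay mainly in cluster 1 (BALB/c) and cluster 5 (B6), so strain and cluster largely coincide within these classes. B6 2 stands apart in its number of barcodes, in its total UMIs and in its file header, which names a later Cell Ranger version. Results that move by over 1.5 times without it, or lose a call, are given without it, here or as a range in the closing section.

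The promoters are shown first, as the stretches searched for the letters of the GAS and ISRE sites. RefSeq promoters (GRCm38.p6, 250 bases before to 50 after the start of transcription) matched 8 of the 10 genes. They were searched on both strands for the ISRE core, which is GAAA, any 2 bases and GAAA, and for the GAS letters TTCNNNGAA. An ISRE core was found in 7 of the 8 matched genes, against 3.44% of 32851 promoters, and GAS letters in 4 of 8, against 8.30%. Each stretch of 80 bases below runs 5′ to 3′ on the gene's strand and ends at or before the start of transcription. Capitals mark the ISRE core and the GAS letters; on the other strand the core reads TTTC, any 2 bases and TTTC.
Igtp (chr11:58199476-58199555, plus strand): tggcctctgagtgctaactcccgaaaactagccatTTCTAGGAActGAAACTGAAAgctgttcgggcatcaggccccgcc
Irgm2 (chr11:58214873-58214952, plus strand): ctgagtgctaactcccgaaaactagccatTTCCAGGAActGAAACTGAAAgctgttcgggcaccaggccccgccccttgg
Tgtp2 (chr11:49064243-49064322, minus strand): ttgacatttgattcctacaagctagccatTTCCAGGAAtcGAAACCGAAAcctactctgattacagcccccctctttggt
Irgm1 (chr11:48871421-48871500, minus strand): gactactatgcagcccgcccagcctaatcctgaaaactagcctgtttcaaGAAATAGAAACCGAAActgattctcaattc
Gbp2 (chr3:142620564-142620643, plus strand): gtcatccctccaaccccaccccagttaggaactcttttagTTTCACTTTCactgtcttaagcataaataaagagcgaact
Gbp3 (chr3:142559964-142560043, plus strand): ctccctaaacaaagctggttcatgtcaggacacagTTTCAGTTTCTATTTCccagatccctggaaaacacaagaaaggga
Gbp7 (chr3:142530243-142530322, plus strand): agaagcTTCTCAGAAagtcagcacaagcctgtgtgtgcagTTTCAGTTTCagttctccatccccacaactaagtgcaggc

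In Igtp, Irgm2 and Tgtp2 the GAS letters begin 45, 75 and 81 bases upstream of the start and lie just before an ISRE core, which begins 34, 64 and 70 bases upstream. The stretches of Igtp and Irgm2 are near copies: aligned without gaps at the ISRE core, 78 of 80 bases are identical, against 50 of 80 for Igtp and Tgtp2. Irgm1 and Gbp3 each carry 2 overlapping ISRE cores, and the second RefSeq promoter of Gbp3 carries none. In Gbp7 the GAS letters occur at 2 places, 106 and 87 bases upstream, and the core lies nearer the start, at 53. The Ifi47 promoter holds neither set of letters within these 300 bases. A match is a description of the sequence and not a measured binding site.

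By the annotation of GRCm38, 5 IRG genes lie on chromosome 11: Irgm1 (chr11:48861968-48871683, minus strand), Tgtp2 (chr11:49057194-49064206, minus strand), Ifi47 (chr11:49076587-49096974, plus strand), Igtp (chr11:58199556-58207591, plus strand) and Irgm2 (chr11:58199618-58222782, plus strand). Gbp7 (chr3:142530342-142550149), Gbp3 (chr3:142560026-142573209) and Gbp2 (chr3:142620602-142638008) follow each other on the plus strand of chromosome 3, and Gbp9 (chr5:105077630-105139539) is on the minus strand of chromosome 5. Some members share sequence with a relative, so that 5′ reads may be split or lost. Of the 90-base windows in the first 500 bases of its transcripts, Tgtp2 shares 72.0% with Tgtp1 or Gm12185, Igtp shares 17.4% with Irgm2, and Irgm2 shares 11.8% with Igtp. The annotated gene of Irgm2 also overlaps Igtp on the same strand, and that of Gbp9 overlaps Gbp4 and Gbp8. Ifi47 overlaps Olfr56 on its strand and shares 2.16% of its windows with it. Values of these genes are less certain than those of Irgm1, Iigp1 and Gbp2, which share no window and overlap no gene on their strand. Gbp7 shares no window but overlaps Gm43802 on its strand.

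Levels in the iNKT classes were compared first. The GTPases were on balance highest in iNKT1-like cells, the class that makes interferon gamma: 7 of the 10 were higher there than in iNKT2-like cells, Iigp1 was lower, and Irgm1 and Gbp2 did not pass the test. All 10 genes summed stood at 922, 1009, 922 and 993 CPM in iNKT1-like cells, at 567, 516, 650 and 674 in iNKT2-like cells, and at 636, 636, 419 and 596 in iNKT17-like cells. The sum was thus highest in iNKT1-like cells in 4 of 4 libraries, whereas iNKT17-like cells were above iNKT2-like cells in 2 libraries and below them in 2. Classes were compared by edgeR's quasi-likelihood test on UMIs summed per library and class (12 sums, library as a block), with Benjamini-Hochberg adjustment over all genes at 0.05. The SE was taken from the fold change and the square root of the F statistic. Of 10447 genes tested, 56.9% were called between iNKT1-like and iNKT2-like cells (28.3% of all tested as higher and 28.6% as lower), so a call by itself sets no gene apart. The median log2 difference of the 10 members was 0.83, against 0.0056 for all genes tested.

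**Figure D1:**
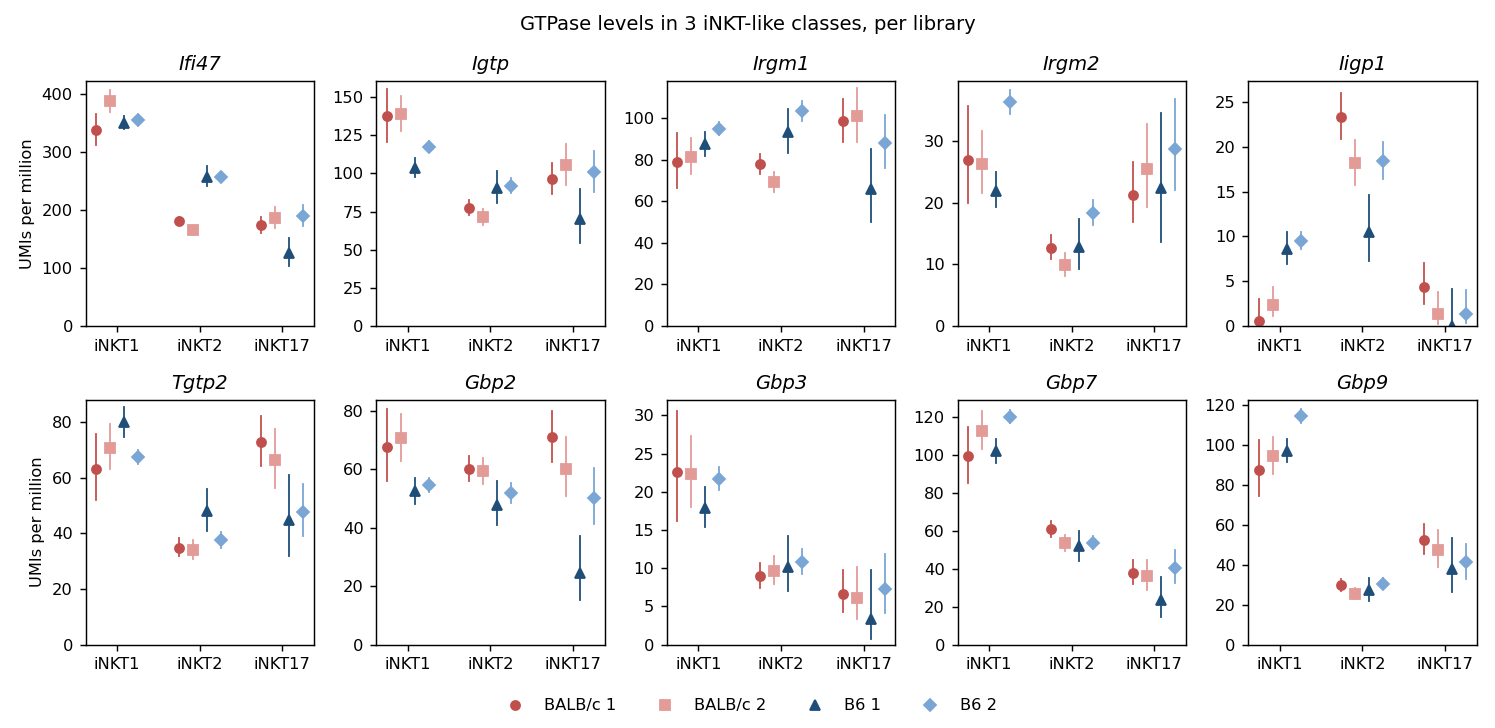
Level of each GTPase in CPM (y axis, from 0, a scale per gene) in the 3 iNKT classes, with 1 point per library and bars for the exact 95% Poisson interval, which covers counting error only. Gbp9 stands above 87 in iNKT1-like cells and near or below 30.3 in iNKT2-like cells of each library, Iigp1 has the opposite order, and Irgm1 has no steady order.

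Among the GBPs, Gbp9 had the largest difference between iNKT1-like and iNKT2-like cells. It was at 87.4, 94.3, 96.8 and 114 CPM in iNKT1-like cells, at 29.6, 25.4, 27.3 and 30.3 in iNKT2-like cells, and at 52.4, 47.4, 38.0 and 41.0 in iNKT17-like cells. The 3 classes did not overlap, and their order was the same in each library. The log2 difference between iNKT1-like and iNKT2-like cells was 1.83 (SE 0.094, edgeR adjusted p = 5.4e-08), and that between iNKT17-like and iNKT2-like cells 0.59 (SE 0.11, adjusted p = 0.0016).

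Gbp3 and Gbp7, neighbours on chromosome 3, had another order, with iNKT17-like cells lowest. Gbp7 was at 99.5, 113, 102 and 120.5 CPM in iNKT1-like cells, at 61.1, 53.5, 51.8 and 53.8 in iNKT2-like cells and at 37.9, 36.2, 23.5 and 40.6 in iNKT17-like cells. For Gbp3 these values were 22.5, 22.3, 17.9 and 21.7 CPM, then 8.93, 9.60, 10.2 and 10.8, and then 6.55, 6.03, 3.35 and 7.29. Neither gene overlapped between classes. In iNKT1-like against iNKT2-like cells Gbp7 was higher by 1.00 and Gbp3 by 1.10 on the log2 scale (SE 0.090 and 0.12, edgeR adjusted p = 3.06e-06 and 1.24e-05). In iNKT17-like against iNKT2-like cells they were lower, at -0.74 and -0.77 (adjusted p = 0.00035 and 0.0046), so Gbp9 on one side and Gbp3 and Gbp7 on the other moved in opposite directions in this comparison. Gbp2, the third gene of that chromosome 3 group in the list, was nearly level between iNKT1-like and iNKT2-like cells. It was at 67.6, 70.6, 52.5 and 54.6 CPM in iNKT1-like and 60.2, 59.4, 47.9 and 51.8 in iNKT2-like cells, slightly higher in the former in 4 of 4 libraries. In iNKT17-like cells Gbp2 was at 70.9, 60.3, 24.6 and 50.1 CPM, with B6 1 well below its other classes. Its difference of 0.18 between iNKT1-like and iNKT2-like cells (SE 0.11, adjusted p = 0.18) did not pass.

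The 3 IRG regulators behaved differently from each other. Irgm1, which guards endomembranes from the other IRGs, was at 78.6, 81.3, 87.3 and 94.8 CPM in iNKT1-like cells, 77.9, 69.2, 93.2 and 103 in iNKT2-like cells and 98.5, 101, 65.9 and 88.0 in iNKT17-like cells. Its classes overlapped, and none of its 3 class differences passed (log2 0.017, -0.0098 and -0.027; edgeR adjusted p = 0.92, 0.97 and 0.90). Irgm2 was at 26.9, 26.3, 22.0 and 36.3 CPM in iNKT1-like, 12.7, 9.87, 12.9 and 18.3 in iNKT2-like and 21.3, 25.4, 22.4 and 28.7 in iNKT17-like cells. Here iNKT2-like cells were the low class, below both others in 4 of 4 libraries, by log2 differences of 1.06 (SE 0.11, adjusted p = 1.23e-05) and 0.76 (SE 0.13, adjusted p = 0.00099). Igtp, also called Irgm3, was at 137, 139, 104 and 118 CPM in iNKT1-like, 77.7, 71.4, 90.8 and 92.0 in iNKT2-like and 96.6, 105.5, 70.4 and 100.7 in iNKT17-like cells. It was higher in iNKT1-like than in iNKT2-like cells in 4 of 4 libraries (0.58, SE 0.11, adjusted p = 0.00089), a call lost with classes taken from each cell's highest marker score (adjusted p = 0.073).

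Of the IRG effectors, Ifi47 and Tgtp2 were higher in iNKT1-like than in iNKT2-like cells, and Iigp1 lower. Ifi47 was at 338, 389, 351 and 356 CPM in iNKT1-like, 181, 165, 258 and 257 in iNKT2-like and 174, 187, 126 and 191 in iNKT17-like cells. It rose by 0.76 from iNKT2-like to iNKT1-like cells (SE 0.13, edgeR adjusted p = 0.00052), with no overlap between these classes. Tgtp2 was at 63.2, 70.8, 79.9 and 67.4 CPM in iNKT1-like cells, 34.9, 34.1, 47.9 and 37.6 in iNKT2-like cells and 72.8, 66.3, 44.7 and 47.9 in iNKT17-like cells. Its difference between iNKT1-like and iNKT2-like cells was 0.91 (SE 0.12, adjusted p = 7.94e-05). Iigp1, which builds coats on pathogen vacuoles, was at 0.55, 2.37, 8.56 and 9.50 CPM in iNKT1-like cells, from 1, 10, 92 and 365 UMIs. In iNKT2-like cells it was at 23.3, 18.2, 10.5 and 18.4 CPM, and in iNKT17-like cells at 4.36, 1.29, 0 and 1.37 CPM, from 16, 3, 0 and 3 UMIs. Relative to iNKT2-like cells, Iigp1 was lower in iNKT1-like cells (log2 -1.37, SE 0.40, adjusted p = 0.013) and in iNKT17-like cells (-3.11, SE 0.61, adjusted p = 0.0023), each in 4 of 4 libraries. Without BALB/c 2 the first of these calls was lost (-1.05, adjusted p = 0.060).

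Between iNKT17-like and iNKT2-like cells, where 33.5% of all genes were called (15.7% as higher, 17.7% as lower), 3 members were higher (Irgm2, Gbp9 and Tgtp2), 4 lower (Iigp1, Gbp3, Gbp7 and Ifi47) and 3 did not pass. The Ifi47 difference of -0.41 (SE 0.14, edgeR adjusted p = 0.041) is the least steady of them: it did not pass without BALB/c 1, B6 1 or B6 2 (adjusted p = 0.078, 0.18 and 0.12). Tgtp2 (0.57, SE 0.14, adjusted p = 0.0084) did not pass without BALB/c 1 or BALB/c 2 (adjusted p = 0.067 and 0.066). Between iNKT17-like and iNKT1-like cells, where 42.5% of genes were called (21.6% as higher, 20.9% as lower), 5 members were lower and none higher. These were Gbp3 (-1.87), Gbp7 (-1.74), Gbp9 (-1.24), Ifi47 (-1.17) and Igtp (-0.49). The other 5 had negative differences that did not pass, from -1.74 for Iigp1 to -0.027 for Irgm1. Without BALB/c 1, 8 members passed in the second comparison, and with classes taken from each cell's highest marker score 3 passed in the first. The median of the 10 members was -0.079 in the first and -0.83 in the second of these comparisons.

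**Figure D2:**
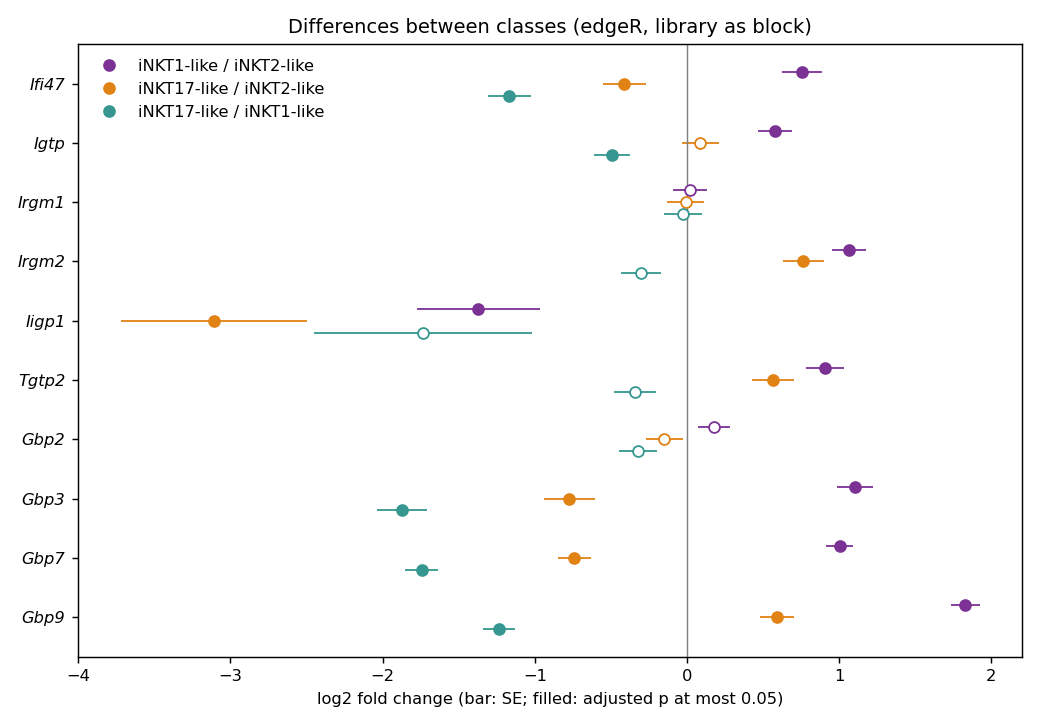
Log2 fold change of each GTPase between iNKT classes (x axis), with bars for the SE and filled points for an adjusted p of at most 0.05. Gbp9 is farthest right at 1.83 in iNKT1-like against iNKT2-like cells, Iigp1 farthest left at -3.11 in iNKT17-like against iNKT2-like cells, and the points of Irgm1 lie close to 0.

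Markers of other cells moved with these classes. The 8 myeloid markers summed to 428 to 787 CPM in iNKT1-like and 133 to 155 in iNKT2-like cells, with 0 to 3 and 2 to 4 of them at 0. Fcer1g, an adaptor that NK-like lymphocytes also use, made up 279 to 515 CPM of the first sum and Cst3 129 to 194. Tyrobp was at 76.4, 51.9, 20.4 and 18.2 CPM in iNKT1-like and at most 0.30 in iNKT2-like cells. Cd74 went the other way, at 0 to 1.9 CPM in iNKT1-like and 3.70 to 19.3 in iNKT2-like cells. Lyz2, Csf1r, Itgax and Aif1 were each at or below 0.84 CPM in iNKT1-like cells. The 7 B cell markers summed to 90.5 to 182 CPM in iNKT1-like and 19.9 to 70.4 in iNKT2-like cells; their part in the class differences was not tested. Double-positive thymocyte-like cells, the precursors in the same sort, had 281 to 342 CPM over all 10 GTPases, less than any of the 3 iNKT classes in each library.

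Per cell, the classes also differed in how many GTPase genes were detected at equal depth, a number that depends on the level of these genes. With each cell thinned to 3000 UMIs, at least 1 of the 10 had a UMI in 86.1%, 89.3%, 88.3% and 90.2% of iNKT1-like cells, in 68.8%, 68.0%, 80.4% and 76.3% of iNKT2-like cells and in 75.5%, 77.8%, 76.1% and 80.7% of iNKT17-like cells. At least 3 had one in 30.5%, 33.5%, 33.3% and 34.8% of iNKT1-like cells, against 17.8%, 15.1%, 20.2% and 23.2% of iNKT2-like cells. Cells of iNKT1 type thus ranked above iNKT2-like cells in each library in both shares. Unthinned, the second share was 59.8% to 72.4% in iNKT1-like and 69.2% to 82.2% in iNKT2-like cells, whose median depth was 15153 to 18645 UMIs against 6491 to 7164. Thinning left out 15, 13, 16 and 111 iNKT1-like and 4, 1, 0 and 0 iNKT2-like cells. The mean number of GTPase genes per thinned cell was 2.03 to 2.17 in iNKT1-like, 1.31 to 1.65 in iNKT2-like and 0.71 to 0.88 in double-positive thymocyte-like cells. In the last of these, which serve as a low reference, 51.5% to 65.4% of cells had at least 1 member and 0% to 4.81% at least 3, from 25 to 104 cells deep enough for thinning.

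**Figure D3:**
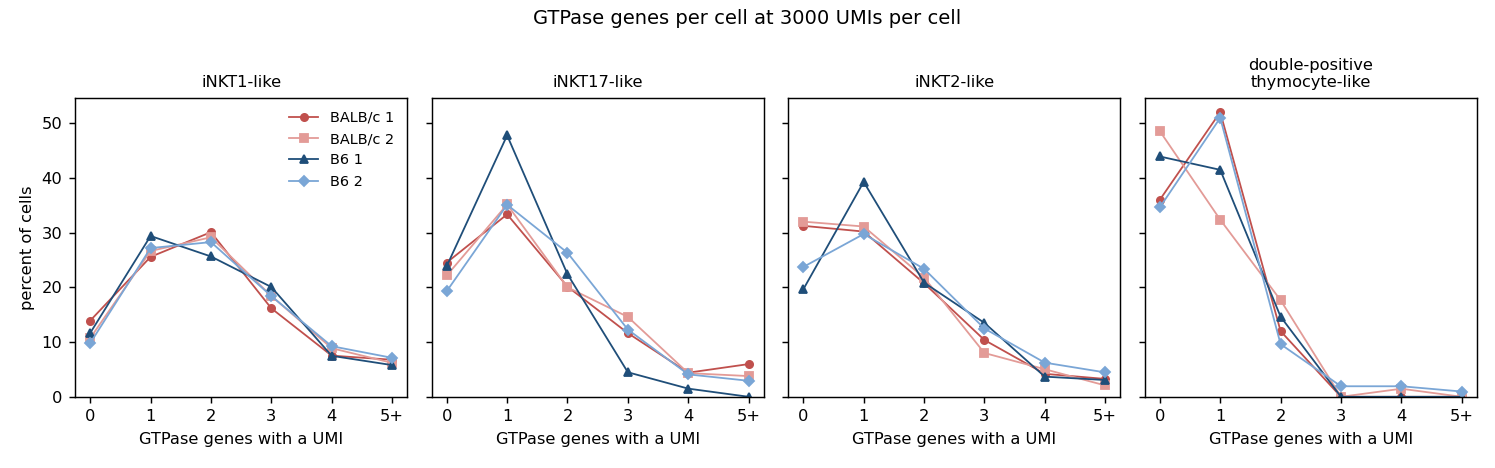
Percent of cells (y axis, from 0) in which 0 to 5 or more of the 10 GTPase genes had a UMI (x axis), each cell thinned to 3000 UMIs, with 1 line per library and 1 panel per class. In iNKT1-like cells 9.80% to 13.9% had none, against 19.6% to 32.0% of iNKT2-like cells.

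How the members vary together was described over the 12 sums of 3 classes and 4 libraries, which share their libraries and depth. Gbp3 and Gbp7 had the highest correlation of log2 CPM among the 45 pairs (Pearson's r = 0.98), followed by Ifi47 with Gbp3 (0.95) and Ifi47 with Gbp7 (0.92). Iigp1 had low or negative correlations with the other 9 members, from -0.66 with Irgm2 to 0.23 with Gbp7. Over 5938 genes that are no members, those most like the summed GTPases were Sp100, a nuclear body protein induced by interferon (r = 0.97), then Gimap8, a GTPase of lymphocytes (0.97), Crybg1 (0.97), Wipf1, which binds the actin regulator WASP (0.96), and Ranbp10 (0.96).

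The genes that sense and signal interferon were compared between the same classes. In iNKT1-like against iNKT2-like cells, 9 of 12 genes of the interferon gamma pathway were higher and 1 lower (median 1.00, all genes 0.0056). These counts stand beside 28.3% of all genes called as higher and 28.6% as lower, and the 12 include the naming marker Ifng. The 2 receptor chains moved in opposite directions. Ifngr1, which binds the cytokine, was at 456, 478, 403 and 419 CPM in iNKT1-like and 20.5, 20.5, 21.0 and 22.9 in iNKT2-like cells (log2 4.37, SE 0.13, edgeR adjusted p = 1.6e-09). Ifngr2, the signalling chain, was at 0.55, 0.47, 0 and 0.26 CPM in iNKT1-like and 29.4, 28.9, 19.2 and 17.7 in iNKT2-like cells (adjusted p = 1.1e-08). iNKT17-like cells had both, with Ifngr1 at 124 to 215 CPM and Ifngr2 at 23.5 to 40.1. The feedback inhibitor Socs1 was higher in iNKT1-like than in iNKT2-like cells by 1.53 and the kinase Jak1 by 0.91. Ifng, itself used to name the class, was at 100.04, 65.6, 26.2 and 29.2 CPM in iNKT1-like cells and at most 4.29 in the others.

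The type I side was less uniform; the counts that follow stand beside 28.3% of all genes called as higher and 28.6% as lower in this comparison. Of 7 type I receptor and ISGF3 genes 5 were higher in iNKT1-like than in iNKT2-like cells, among them Ifnar1 (0.77) and Ifnar2 (0.63), and none lower (median 0.63). Of 29 type I response genes, such as the antiviral Ifit3, 9 were higher and 6 lower, with a median of 0.046 that lay near that of all genes. Genes of antigen processing that interferon gamma also induces went the other way: 1 of 10 was higher and 6 were lower, among them the immunoproteasome subunits Psmb8 (-0.45) and Psmb9 (-0.37) and the activator Psme2 (-0.65). Of 12 genes of the ATG8 conjugation machinery, which guides these GTPases to vacuoles, 8 were higher, such as Gabarap (0.42) and Atg5 (0.49), and 2 lower (median 0.33). Of 9 tested other IRG and GBP genes 4 were higher, Gm4070 (3.25), Gbp5 (1.94), Gbp8 (1.22) and Gbp4 (0.83), and none lower (median 0.83).

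Strains were compared next, as BALB/c relative to B6. Over all kept cells 1 of 10 members passed, Gbp9, which was lower in BALB/c; of 12878 genes tested, 7.28% were called (3.64% as higher, 3.63% as lower). Gbp9 was at 38.7, 41.7, 70.4 and 83.3 CPM, with no overlap between strains (log2 -0.90, SE 0.11, edgeR adjusted p = 0.029). Next came Ifi47 at 187, 211, 287 and 301 CPM (-0.53, adjusted p = 0.053) and Gbp7 at 58.5, 60.1, 79.3 and 94.4 CPM (-0.51, adjusted p = 0.057), which did not pass, although neither overlapped. All 10 genes summed were at 584, 608, 766 and 845 CPM, and the median log2 difference of the members was -0.48, against -0.017 for all genes tested.

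The share of iNKT1-like cells, the class richest in these RNAs, moved with this result: 15.1%, 31.9%, 61.5% and 60.8% of kept cells. The part of this share in the strain differences was not tested. Within classes the Gbp9 difference was -0.18 in iNKT1-like, 0.035 in iNKT2-like and 0.34 in iNKT17-like cells, none of which passed (edgeR adjusted p = 0.48, 0.89 and 0.36). With classes taken from each cell's highest marker score, Gbp9 was lower in BALB/c iNKT2-like cells and passed (-0.69, edgeR adjusted p = 0.021). The share of cells with a high type I interferon score, 6.22%, 6.69%, 11.98% and 15.1%, moved the same way, and its part was not tested. Without BALB/c 1 or BALB/c 2 no gene at all was called over all cells (Gbp9 adjusted p = 0.33 and 0.22), and with the replicate number as a block 0 members passed (Gbp9 adjusted p = 0.056). Without B6 1 or B6 2 more members were called, all lower in BALB/c. Such fits leave 1 B6 library, and the number of all genes called moved widely too. The rise is therefore not read as a result about the members. With double-positive thymocyte-like and B cell-like cells left out, 3 members were called.

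**Figure D4:**
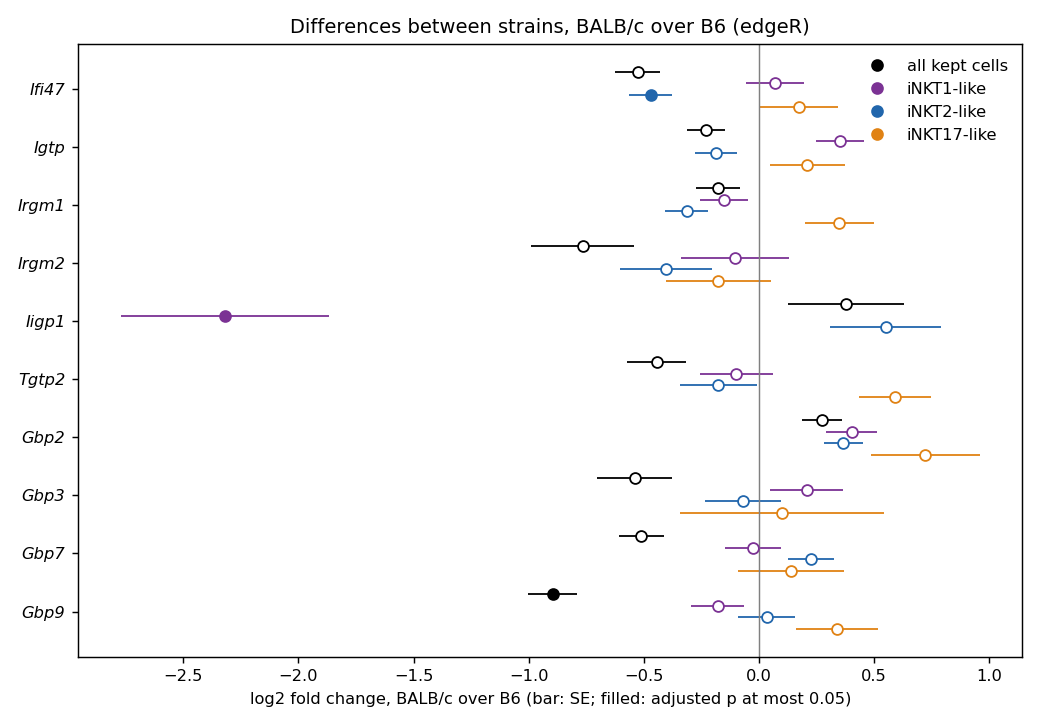
Log2 fold change of each GTPase in BALB/c over B6 (x axis) over all kept cells and in 3 classes, with bars for the SE and filled points for an adjusted p of at most 0.05. Gbp9 lies at -0.90 over all cells and between -0.18 and 0.34 within classes, and Iigp1 at -2.32 in iNKT1-like and 0.55 in iNKT2-like cells.

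Within classes few strain differences passed. In iNKT1-like cells, where 4.4% of 10649 genes were called (2.44% as higher, 1.96% as lower), Iigp1 alone passed, lower in BALB/c at the values given above (log2 -2.32, SE 0.45, edgeR adjusted p = 0.045). Its counts in BALB/c were 1 and 10 UMIs, and the call was lost without BALB/c 1 (-1.87, adjusted p = 0.19), without BALB/c 2 (-4.01, adjusted p = 0.27) or without cells of a high type I interferon score, called score-high and defined further on (adjusted p = 0.12). More members passed without B6 1 or B6 2, but such fits leave 1 B6 library, and the number of all genes called moved widely too. In iNKT2-like cells, where 11.4% of 11723 genes were called (5.03% as higher, 6.36% as lower), Ifi47 alone passed, at 181 and 165 CPM in BALB/c against 258 and 257 in B6 (-0.47, SE 0.094, adjusted p = 0.035). This call was lost without BALB/c 1 or BALB/c 2 (log2 -0.52 and -0.41) and with the replicate block (edgeR adjusted p = 0.069). More members passed without B6 1 or B6 2, with the same limit as in iNKT1-like cells. Summed markers of other cells also differed between the iNKT2-like cells of the strains, and their part was not tested. The 10 double-positive thymocyte markers were at 51.4, 47.2, 90.2 and 136 CPM (0 to 3 of them at 0), the 7 B cell markers at 21.8, 19.9, 70.4 and 59.7 (2 to 4 at 0), and the 5 gamma-delta T cell markers at 777, 573, 347 and 333 (0 to 1 at 0). Among these Trdc, the constant gene of the delta chain, was at most 0.36 CPM, Ms4a1 was at 0 in each library, and Ighm made up 19.3 to 67.7 CPM of the B cell sum. Gbp2 had differences of 0.40, 0.37 and 0.72 in the 3 classes and passed in none (adjusted p = 0.13, 0.0504 and 0.14). In iNKT17-like cells 0 of 9 tested members passed (3 at an unadjusted p under 0.05; 0 by DESeq2), where 4.88% of 9515 genes were called (2.45% as higher, 2.43% as lower); Iigp1 had too few UMIs there to be tested.

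The strain effect itself differed between iNKT1-like and iNKT2-like cells for 3 members. The difference was fitted as an interaction on 8 sums, each library being a block, and 11.8% of 12218 genes were called (6.08% as higher, 5.74% as lower). Ifi47 was 0.56 higher on the log2 scale in the iNKT1-like than in the iNKT2-like strain effect (SE 0.085, edgeR adjusted p = 2.56e-05) and Igtp 0.54 higher (SE 0.099, adjusted p = 0.00031). The ratio of Ifi47 in iNKT1-like to iNKT2-like cells ran from 1.36 in B6 1 to 2.35 in BALB/c 2. Iigp1 differed the other way, by -2.71 (SE 0.41, adjusted p = 2.32e-05): BALB/c was the lower strain in iNKT1-like cells, whereas its levels in iNKT2-like cells were 23.3 and 18.2 CPM against 10.5 and 18.4. The Igtp call was lost without BALB/c 2 (0.44, adjusted p = 0.068). With classes taken from each cell's highest marker score 7 members passed, among them Gbp9 with its sign turned (0.47 in place of -0.21, edgeR adjusted p = 0.0036). Without score-high cells 5 passed. At a finer clustering (Leiden resolution 1.5) the calls of Ifi47 (0.41) and Igtp (0.58) were not kept. That fit held 1 B6 library in iNKT2-like cells.

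Relatives outside the list showed strain differences of another size. Gbp2b, a GBP near Gbp2, had 139 and 131 UMIs over all kept BALB/c cells and 0 and 1 in B6 (6.19, 5.89, 0 and 0.013 CPM). The very large IRG-related GTPase Gvin1 had the reverse pattern, with 0, 0.18, 4.92 and 7.81 CPM. Both were called over all cells (edgeR adjusted p = 0.010 and 0.035). So were Gbp5 (-1.37), Gbp8 (-0.85) and Gm4070 (-1.39), all lower in BALB/c. Of 10 tested relatives, 5 passed. Within iNKT1-like and within iNKT2-like cells 1 was called as higher and 1 as lower. By level alone, with no test outcome given here, Gm4070 stood higher in BALB/c iNKT1-like cells, at 53.3, 52.6, 46.05 and 46.8 CPM. It was at 5.85, 5.37, 5.39 and 4.29 CPM in iNKT2-like cells. Its level was lower in BALB/c iNKT17-like cells, where 0 relatives were called as lower. The levels of Gbp5 and Gbp8 were lower in BALB/c iNKT1-like cells, where 1 relative in all was called as lower. Both genes overlapped between strains in iNKT2-like cells. The part of class shares in the differences over all cells was not tested. Reads of both strains were aligned to 1 reference, mm10, and the part of sequence differences between strains was not tested.

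Cells with a strong type I interferon response were then set against the other cells of the same class. A cell's score was the share of its UMIs in 29 type I response genes, none of them a member, and score-high cells lay at or above the 90th percentile (4651 CPM), a range of a score and not a cell type. The split has no test. In iNKT1-like cells, score-high cells were 25 of 281, 63 of 610, 182 of 1432 and 843 of 5348. All 10 GTPases summed were at 2375, 2380, 1948 and 2180.4 CPM in score-high and 789, 862, 787 and 789 in other cells, ratios of 2.47 to 3.01 (mean 2.75 ± 0.22, SD, n = 4). The median depth was close, 6159 to 6721 against 6498.5 to 7209.5 UMIs. Of the members, 9 were higher in score-high cells in 4 of 4 libraries, by ratios from 1.63 (Gbp3 in BALB/c 2) to 4.39 (Tgtp2 in BALB/c 1).

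Size differed between members. Ifi47 was 1.76 to 2.27 times and Gbp7 2.00 to 2.61 times as high in score-high iNKT1-like cells, whereas Irgm1 was 3.12 to 4.09 times and Igtp 3.11 to 3.74 times as high. Irgm1, level between classes, was thus among the members that differed more by score. Iigp1 stood far from the rest: in B6 it was at 56.8 and 50.6 CPM in score-high and 2.21 and 2.44 CPM in other iNKT1-like cells, ratios of 25.7 and 20.8. In B6 77.2% and 78.1% of its iNKT1-like UMIs came from the 12.7% and 15.8% of cells with a high score. In BALB/c 2 all 10 of its UMIs did, and in BALB/c 1 the single UMI lay in another cell.

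In iNKT2-like cells the GTPases summed were 1.74 to 3.40 times as high in score-high cells, and lowest in B6 1 (33 of 163 cells). There Iigp1 was less tied to the score. It was at 133, 117, 8.72 and 62.3 CPM in score-high and 16.3, 12.4, 10.9 and 10.01 CPM in other iNKT2-like cells, so other iNKT2-like cells had more of it than other iNKT1-like cells in each library. With score-high cells left out of all classes, 8 members still passed between iNKT1-like and iNKT2-like cells, 7 higher and 1 lower, and all 8 were those called with every cell. Cluster 4, an iNKT1-like cluster of B6 with Ifit3 among its leading genes, had 2863 and 1453 CPM of GTPase RNA in B6 1 (30 cells) and B6 2 (1206 cells). Clusters 2 and 10, led by Ccl5 and the granzyme Gzma, had 687 to 867 CPM in their main libraries, against 951 to 1114 in clusters 3 and 9. Cluster 0, led by Klrb1c and the largest of the iNKT1-like clusters, lay within the lower range. It had 810 CPM in B6 1 (20 cells) and 860 in B6 2 (2636 cells).

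**Figure D5:**
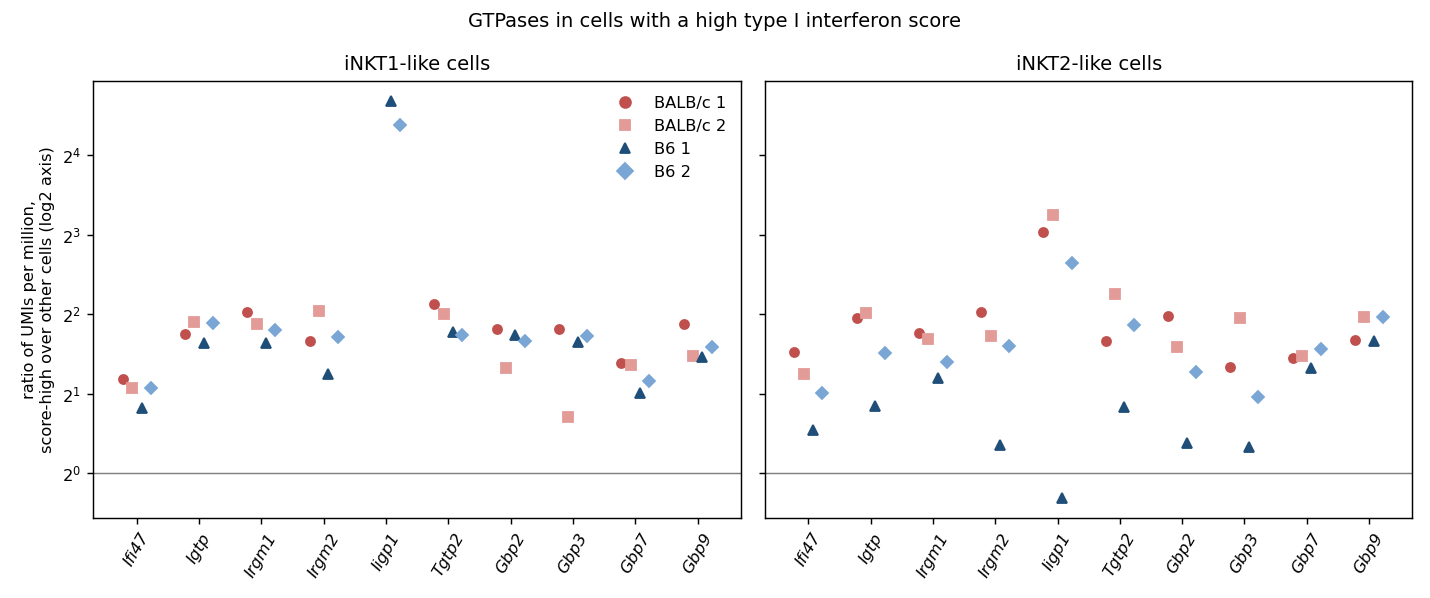
Ratio of each GTPase's level in cells with a high type I interferon score to that in other cells of the same class (y axis, log2 scale), with 1 point per library and only where both sides had at least 4 UMIs. In iNKT1-like cells Iigp1 lies at 20.8 and 25.7 in B6 and the other members between 1.63 and 4.39; in iNKT2-like cells of B6 1 Iigp1 lies at 0.80.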

How the data were processed

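UMI counts per gene and barcode, not normalized, are what the authors deposited for the 4 libraries. Cell Ranger 7.1.0 and mm10 are named in the submitters' processing notes, whereas per the file headers version 6.0.0 made 3 of the matrices and 7.1.0 that of B6 2. Counting of intronic reads is not stated. Cells needed at least 500 genes and 1000 UMIs and at most 10% mitochondrial UMIs, and those of highest Scrublet score were removed (0.8% per 1000 barcodes, 33, 34, 50 and 758). Clustering used scanpy 1.11.5 (2000 variable genes without the members and other interferon genes, 30 components, 15 neighbours, Leiden resolution 1.0). Clusters were named by markers under a scoring rule set after clusters were seen: a mean log2 fold of at least 1, at least 50% of markers above 0.5, and a margin of 1 over the next class. These names may not match those of the study, and 120, 87, 333 and 1781 cells stayed unnamed.

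UMI counts were summed per library and class and tested with edgeR 4.0.16 (TMM, filterByExpr, quasi-likelihood); CPM values carry no scaling factors. Alternatives were DESeq2 1.42.0, other scaling, no filter, left-out libraries, replicate blocks and other class definitions. The tests were checked on simulated data. Sequences come from RefSeq (GRCm38.p6), and positions from GENCODE, to which 32158 of 32285 genes matched. Intervals cover counting error only. All 10 members are named in the comparisons, with up to 4 genes of lowest p from each other list. Socs1, Psmb9, Gm4070 over all cells and the levels of Ifng were added after their values were seen. So were the strain differences of Gbp5, Gbp8 and Gm4070 within classes. Some marker and pathway genes are not reported here. The members and lists were chosen with earlier results of these data known.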

Additional observations from a re-analysis of the deposited data

Results flagged for a closer look

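For 3 members the strain effect differed between iNKT1-like and iNKT2-like cells by a test of the difference itself (edgeR's quasi-likelihood interaction term, adjusted over 12218 genes). The difference was 0.56 on the log2 scale for Ifi47, 0.54 for Igtp and -2.71 for Iigp1. In iNKT1-like cells Igtp stood at 137 and 139 CPM in the BALB/c libraries, above 104 and 118 in the B6 libraries, and in iNKT2-like cells at 77.7 and 71.4, below 90.8 and 92.0. Iigp1 rests on 11 UMIs in all in BALB/c iNKT1-like cells. Clusters of these classes are mostly of 1 strain, and how far that bears on the 3 values was not tested.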

How the results depend on the processing

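Of 311 alternative values for members that passed, 278 kept direction and call, 33 lost the call and 0 reversed. Of 656 for members that did not, 561 stayed so, 52 passed in the same direction and 43 reversed, 2 of which passed. Members passing over all cells numbered 1, and 4 by DESeq2, 3 with no filter, 2 with no scaling factors, 0 with the replicate block, 3 without double-positive thymocyte-like and B cell-like cells, and 0 to 6 without 1 library; genes passing numbered 937, and 1747 by DESeq2, 264 with the replicate block and 0 to 5203 without 1 library. In iNKT1-like cells 1 member passed between strains, and 0 with no scaling factors, with classes by highest marker score or without score-high cells, and 0 to 4 without 1 library; genes numbered 469, and 1383 with no filter, 835 with the replicate block and 0 to 3594 without 1 library. In iNKT2-like cells 1 passed, and 3 with no filter, 0 with the replicate block, 2 with classes by marker score, 3 at Leiden resolution 1.5, 0 without score-high cells and 0 to 6 without 1 library; genes numbered 1335, and 3045 with no filter, 851 at resolution 1.5 and 119 to 5669 without 1 library. In iNKT17-like cells 0 passed, and 2 with no filter, 1 with the replicate block, 1 without score-high cells and 0 to 1 without 1 library; genes numbered 464, and 258 by DESeq2, 1120 with no filter, 795 with the replicate block and 146 to 1888 without 1 library. With the numbers crossed, the block gave 1 member over all cells, 1 in iNKT1-like and 0 in iNKT2-like cells, with 672 genes in the last. Between iNKT1-like and iNKT2-like cells 8 members passed, and 7 to 8 without 1 library (genes 5943, and 4849 to 5489). Between iNKT17-like and iNKT2-like cells 7 passed, and 3 with classes by marker score and 5 to 6 without 1 library; genes numbered 3497, and 2055 with no replicate block and 2543 to 2945 without 1 library. Between iNKT17-like and iNKT1-like cells 5 passed, and 8 with no filter and 5 to 8 without 1 library (genes 4443, and 3509 to 3912). For the interaction 3 passed, and 7 with classes by marker score, 1 at resolution 1.5, 5 without score-high cells and 2 to 3 without 1 library; genes numbered 1444, and 591 by DESeq2, 374 at resolution 1.5 and 717 to 1427 without 1 library. The share of iNKT1-like cells with at least 3 members averaged 33.0%, and 68.6% with no thinning and 32.4% to 33.9% without 1 library; the score ratio of 2.75 was 3.21 at the 95th percentile and 2.67 to 2.85 without 1 library.

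The members that reversed had not passed in the main comparison, and under the alternative 2 values did, both of Gbp9 with classes by marker score (edgeR adjusted p = 0.021 in iNKT2-like cells and 0.0036 for the interaction). With classes by marker score, strain differences became 0.017 for Gbp7 in iNKT1-like cells, -0.27 for Gbp7 and -0.69 for Gbp9 in iNKT2-like cells, and -0.11 for Ifi47, -0.0088 for Igtp, -0.75 for Gbp3, -0.37 for Gbp7 and -0.37 for Gbp9 in iNKT17-like cells; class differences became -0.11 (Irgm1, iNKT1-like against iNKT2-like), -0.071 (Igtp, iNKT17-like against iNKT2-like) and 0.030 (Irgm1, iNKT17-like against iNKT1-like), and the interaction 0.25 for Gbp7 and 0.47 for Gbp9. Without score-high cells the strain difference of Gbp3 in iNKT17-like cells was -0.12, the 3 class differences of Irgm1 were -0.093, 0.095 and 0.19, and the interaction of Tgtp2 -0.041. With no scaling factors the iNKT2-like strain difference of Gbp9 was -0.081, and Irgm1 was at 0.10 and 0.089 in iNKT17-like against iNKT2-like and iNKT1-like cells. At resolution 1.5 Gbp3 was at 0.016 between strains in iNKT2-like cells and Irgm1 at 0.026 in iNKT17-like against iNKT2-like cells, where RLE factors gave 0.00085. Leaving out 1 library moved Irgm1 from -0.039 to 0.062, -0.15 to 0.099 and -0.12 to 0.062 in the 3 class comparisons, and Igtp from -0.021 to 0.21 in iNKT17-like against iNKT2-like cells. Strain differences then ran from -0.15 to 0.081 (Gbp7), -0.054 to 0.19 (Ifi47), -0.36 to 0.25 (Irgm2) and -0.25 to 0.10 (Tgtp2) in iNKT1-like cells, from -0.13 to 0.0024 (Gbp3), -0.059 to 0.14 (Gbp9) and -0.43 to 0.069 (Tgtp2) in iNKT2-like cells, and from -0.14 to 0.83 (Gbp3), -0.061 to 0.59 (Gbp7) and -0.014 to 0.44 (Ifi47) in iNKT17-like cells. The interaction ran from -0.0064 to 0.090 (Gbp2) and -0.035 to 0.19 (Tgtp2). The cause of these moves was not tested. Chosen after seeing the data were the alternatives with no scaling factors, with numbers crossed, without score-high cells, without double-positive thymocyte-like and B cell-like cells, and, for the share and the score ratio, without 1 library. Sums of under 20 cells were dropped at resolution 1.5, which left 1 B6 library in iNKT2-like cells, assumed to vary like the other libraries, as is any lone library above. Same-numbered libraries deviated with correlations of -0.16 over all cells, -0.084 in iNKT1-like, -0.016 in iNKT2-like and 0.023 in iNKT17-like cells, so the replicate numbers are not shown to pair them. Depth limits Iigp1 most, at 0 to 16 UMIs per library in iNKT17-like cells.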
